A study of Arabidopsis thaliana with 12 samples.

Results

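The genes described here are 38 Arabidopsis thaliana genes of tetrapyrrole and chlorophyll metabolism, defined by a list of locus identifiers. Of these 38 genes, 36 had counts in all 12 libraries of the series, which held 17751 such genes in all. HEMB2 (AT1G44318) was in no table, and PORA (AT5G54190) had counts in some libraries only. The series sequenced polyadenylated RNA from germinating seeds to ask what AGO4, an Argonaute protein that guides DNA methylation through small RNAs, does in germination under salt. The lines were ago4-3, ago4-2 and the wild type Col-0, germinated on MS 1X medium with 100 mM NaCl, or on MS 1X medium alone as control, all at 21 °C with 16 h of light and 8 h of dark. Each of the 6 groups (ago4-3 in NaCl, ago4-3 in control, ago4-2 in NaCl, ago4-2 in control, Col-0 in NaCl and Col-0 in control) had 2 libraries. The labels give neither the time of harvest, nor the kind of mutation in either allele, nor the background of either line. The 2 libraries of a group are described as biological replicates, with no word on what was kept separate, and the p-values cover no more than the spread among these 12 libraries.

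Plants build tetrapyrroles in the plastid from glutamate, by way of 5-aminolevulinic acid (ALA) and protoporphyrin. At protoporphyrin the pathway branches: magnesium chelatase commits it to chlorophyll, and ferrochelatase commits it to heme, from which the phytochrome chromophore is made. A germinating seed turns the pathway on as its plastids become chloroplasts, and it has to keep the flow balanced, because free intermediates are phototoxic. The entry enzyme glutamyl-tRNA reductase and the magnesium chelatase subunit CHLH are known control points.

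Upstream sequences are shown for 5 genes whose RNA moved in the comparisons that follow: CHLH, which fell furthest of the 36 fitted genes, CHLP, which rose furthest of them, and CAO, CRD1 and PORB, whose upstream windows held a searched motif. Each is the stretch of up to 300 bases directly before the annotated gene start, read 5′ to 3′ on the strand of the gene from the RefSeq TAIR10.1 genome. Where another annotated gene reached into the window, only the bases between the 2 genes are given. Capitals mark matches on either strand to the G-box CACGTG, a site bound by light-signalling factors such as HY5 and the PIF proteins, to the evening element AAAATATCT of clock-controlled genes, and to CCAATC, a sequence associated with genes regulated by the chloroplast factors GLK1 and GLK2. The letters CCAATC include those of the common CCAAT box.
CHLH, chr5:4392430-4392729, minus strand: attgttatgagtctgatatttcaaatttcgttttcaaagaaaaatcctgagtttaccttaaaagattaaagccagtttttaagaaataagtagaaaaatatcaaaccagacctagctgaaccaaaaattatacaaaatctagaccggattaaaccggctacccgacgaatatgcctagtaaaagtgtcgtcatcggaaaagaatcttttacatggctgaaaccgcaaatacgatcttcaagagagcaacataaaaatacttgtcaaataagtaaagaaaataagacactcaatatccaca
CHLP, chr1:27990865-27991164, plus strand: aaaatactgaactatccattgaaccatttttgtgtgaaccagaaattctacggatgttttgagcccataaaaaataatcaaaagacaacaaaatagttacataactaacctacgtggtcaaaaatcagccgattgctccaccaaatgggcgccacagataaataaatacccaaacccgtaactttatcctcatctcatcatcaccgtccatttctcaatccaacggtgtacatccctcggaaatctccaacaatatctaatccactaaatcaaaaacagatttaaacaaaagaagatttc
CAO, chr1:16851272-16851571, minus strand: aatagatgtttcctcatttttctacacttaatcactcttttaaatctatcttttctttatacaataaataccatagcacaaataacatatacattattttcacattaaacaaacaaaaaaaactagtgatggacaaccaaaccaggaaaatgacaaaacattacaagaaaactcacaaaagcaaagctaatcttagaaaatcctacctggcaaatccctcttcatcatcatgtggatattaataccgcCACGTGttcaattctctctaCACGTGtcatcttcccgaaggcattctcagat
CRD1, chr3:21076316-21076504, plus strand: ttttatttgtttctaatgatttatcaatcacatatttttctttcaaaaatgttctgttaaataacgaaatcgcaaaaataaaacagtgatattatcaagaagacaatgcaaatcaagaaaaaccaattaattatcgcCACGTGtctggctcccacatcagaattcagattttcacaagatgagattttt
PORB, chr4:13725360-13725545, plus strand: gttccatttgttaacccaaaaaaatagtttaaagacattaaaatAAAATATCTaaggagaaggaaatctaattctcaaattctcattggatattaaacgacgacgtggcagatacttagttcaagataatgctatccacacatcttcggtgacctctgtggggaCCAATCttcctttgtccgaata

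The window of CAO held 2 G-boxes, which began 52 and 32 bases before the gene start, and that of CRD1 held 1, which began 52 bases before it. PORB had an evening element that began 142 bases before its start and a CCAATC that began 22 bases before it, and a further CCAATC at 219 bases lay in the neighbouring gene, outside the bases shown. The windows of CHLH and CHLP held none of these letters. Over the 300-base windows of all 38 genes, 6 (15.8%) held a G-box, against 7.09% of 27443 protein-coding genes and 8.54% of the 17024 of those with counts in all libraries. The evening element was in 3 of 38 windows (7.89%: PORA, PORB and NYC1), against 2.79% of protein-coding genes. CCAATC was in 3 of 38 windows (7.89%: GSA2, GUN4 and PORB), against 12.2%. These matches are descriptions of letters and not of bound sites.

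Library totals over the 17751 genes ran from 18168653 to 47517007 counts. The 36 genes, with PORA where it had counts, together came to between 0.2323% and 0.3786% of that total. Values are given as CPM, counts scaled to a common library size with TMM factors, and as log2 fold changes ± SE from an edgeR quasi-likelihood fit over all 17751 genes, with Benjamini-Hochberg adjusted p over that whole table and a call at an adjusted p under 0.05. AGO4 (AT2G27040), read as a check of the labels, was lower in ago4-3 than in Col-0 by −6.09 in NaCl and −5.17 in control (log2), and its log2 difference in ago4-2 was −0.21 and −0.02. The summed level of 6 seed storage transcripts, markers of cells that still hold a seed programme, was 1680 and 1550 CPM in ago4-3 NaCl libraries against 263 and 157 CPM in ago4-3 control libraries. In ago4-2 the sum was 9040 and 10200 CPM in NaCl against 1630 and 1500 CPM in control, and in Col-0 it was 633 and 956 CPM in NaCl against 148 and 189 CPM in control. CRA1 made up most of each NaCl sum, with means of 1230, 6070 and 607 CPM in ago4-3, ago4-2 and Col-0. SESA1 had a lower mean in NaCl than in control in all 3 lines (6.11 against 9.16, 23.2 against 35.8 and 3.98 against 4.57 CPM). With salt, 4, 4 and 3 of the 6 genes were called higher in these lines and 0 lower. No other group reached the storage level of ago4-2 in NaCl, and all 6 storage genes were higher there than in Col-0 in NaCl. Of these 6, CRC, SESA1, SESA2 and OLEO1 lie between 7542233 and 15566971 on chromosome 4, a stretch described below. There, as for any other gene, the line background of ago4-2 and its allele cannot be told apart. The summed level of the 5 measured green tissue markers of 6 listed was 3850 and 4170 CPM in ago4-2 NaCl libraries and 4610 and 5610 CPM in Col-0 NaCl libraries, with 4 of the 5 lower in ago4-2. RBCS1A made up most of these sums, with means of 3880 and 4760 CPM. Between NaCl and control, 3 of the 5 rose and 2 fell in ago4-3. In ago4-2, 0 rose and 3 fell, and in Col-0, 3 rose and 0 fell. The shares of all genes called in these salt comparisons are given below with the pathway genes. Endosperm markers summed to 117 to 120 CPM in ago4-2 in NaCl and 66.1 to 83.6 CPM in Col-0 in NaCl, and 1 of 2 seed coat markers and 1 of 2 root hair markers were measured, each under 10 CPM in every library. These markers moved in the same comparisons as the pathway genes, and their part in the results was not tested. In whole germinating seeds, fewer cells that express a gene and less RNA of it per cell cannot be told apart.

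The levels of the 36 genes differed widely when set per kilobase of exon. HEMC, which joins 4 porphobilinogen units into a linear tetrapyrrole, had the highest mean over the 12 libraries, with 198 CPM per kb. FLU followed with 145 and CHLI1 with 139 CPM per kb, and the genes of chlorophyll breakdown were at the low end, with 1.87 for PAO, 2.54 for CLH2 and 3.25 for CLH1. CHLH, at 6.01 CPM per kb, was the scarcest of the 4 measured magnesium chelatase genes, below CHLD at 35.9, CHLI2 at 38.1 and CHLI1 at 139.

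The salt comparison set NaCl against control within each line. In ago4-3, 11 of 36 genes rose in NaCl and 3 fell, with a median log2 fold change of 0.14. The background for ago4-3 was 12.6% of genes higher and 10.4% lower, with a median over all genes of −0.01. In ago4-2, 5 of 36 rose and 9 fell, with a median of −0.10 (all genes −0.02), on a background of 17.4% higher and 17.8% lower. The 2 ago4-2 control libraries differed from each other more than those of any other group, with a chi-square per gene of 153.6 (14.11 to 30.07 in the other groups), TMM factors of 0.8521 and 1.088, and 2.04% and 0.202% of counts from organelle genes. The ago4-2 median was −0.07 without the first of them and 0.04 without the second, and the part this spread has in the ago4-2 results was not tested. In Col-0, 23 of 36 rose and 0 fell, with a median of 0.40 (all genes 0.01), on a background of 10.7% higher and 7.42% lower. In Col-0, 1 gene was lower at an unadjusted p under 0.05, and DESeq2 also called 0 lower and 24 higher. All 8 measured genes of the chlorophyll branch, from CHLM to CHLP, rose in Col-0, while in ago4-3 4 of 8 rose and 0 fell, and in ago4-2 1 of 8 rose and 2 fell. Of the 8 Col-0 calls, that of DVR was lost without any 1 of the 4 Col-0 libraries, that of CHLM without either control library and without the second NaCl library, and that of PORC without the second control library.

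These counts depended on single libraries. Without the first Col-0 control library 12 genes were called in Col-0, and without the second 9 were called, all of them higher. In ago4-2, 9 genes were called without the second NaCl library. In ago4-3, 8 were called without either control library and 5 without the first NaCl library. Scaling by library totals alone gave 2 higher and 12 lower genes in ago4-2.

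**Figure D1:**
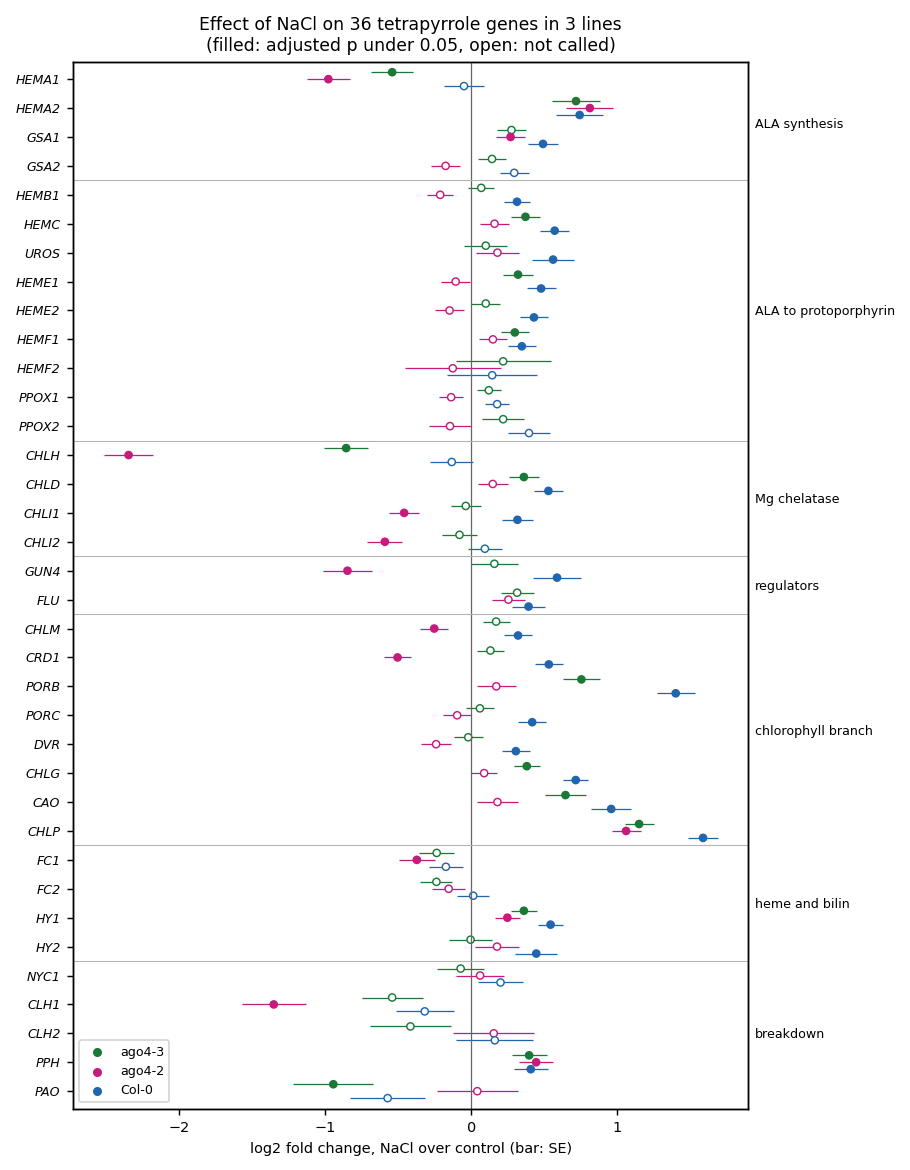
Log2 fold change of each of 36 genes in NaCl over control, with its SE, in ago4-3, ago4-2 and Col-0, ordered by step of the pathway; filled points were called at an adjusted p under 0.05. The Col-0 points of the chlorophyll branch all lie to the right of 0, and CHLH in ago4-2 lies furthest to the left at −2.35.

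Read gene by gene, HEMA2, CHLP, HY1 and PPH rose in all 3 lines. HEMA1 and CHLH fell in both mutant lines and were not called in Col-0. CHLI1, GUN4, CHLM and CRD1 rose in Col-0, fell in ago4-2 and were not called in ago4-3. HEMC, HEME1, HEMF1, CHLD, PORB, CHLG and CAO rose in ago4-3 and Col-0 and were not called in ago4-2. GSA2, HEMF2, PPOX1, PPOX2, FC2, NYC1 and CLH2 were called in none of the 3.

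The pathway starts with glutamyl-tRNA reductase, encoded by HEMA1 (AT1G58290; chr1:21623700-21626402), the light-induced form of green tissue, and by HEMA2 (AT1G09940; chr1:3236908-3239554), the form known from roots and other non-green tissue. HEMA1 had 20.8 and 26.8 CPM in ago4-3 NaCl libraries, against 31.1 and 38.5 CPM in ago4-3 control libraries. In ago4-2 it had 12.9 and 13.4 CPM in NaCl, against 28.5 and 23.6 CPM in control. In Col-0 it had 31.3 and 32.4 CPM in NaCl, against 33.3 and 32.6 CPM in control. The 2 groups did not overlap in any line, but in Col-0 they were close together. The log2 fold change was −0.54 ± 0.14 in ago4-3 (edgeR, adjusted p = 0.0127) and −0.98 ± 0.15 in ago4-2 (edgeR, adjusted p = 0.000145), and in Col-0 it was −0.05 ± 0.14 (adjusted p = 0.857). In ago4-3 the call was lost without the second control library (−0.38, adjusted p = 0.138) and without the first NaCl library (−0.38, adjusted p = 0.151).

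HEMA2 moved the other way. It had 35.0 and 34.8 CPM in ago4-3 NaCl libraries, against 19.0 and 23.6 CPM in ago4-3 control libraries. It had 48.9 and 49.7 CPM in ago4-2 NaCl libraries, against 34.6 and 22.1 CPM in ago4-2 control libraries. It had 33.8 and 32.9 CPM in Col-0 NaCl libraries, against 20.1 and 19.7 CPM in Col-0 control libraries. Every NaCl library was above every control library of its line. On the log2 scale the rise was 0.72 ± 0.16 in ago4-3, 0.81 ± 0.16 in ago4-2 and 0.74 ± 0.16 in Col-0. The ago4-3 call was lost without the first control library (adjusted p = 0.0669) and the Col-0 call without the second control library (adjusted p = 0.0503).

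The balance of the 2 reductase genes was also read within each library. Per length, the log2 ratio of HEMA1 to HEMA2 was −0.82 and −0.45 in ago4-3 NaCl libraries, against 0.64 in both ago4-3 control libraries. It was −1.99 and −1.96 in ago4-2 NaCl libraries, against −0.35 and 0.02 in ago4-2 control libraries, and −0.18 and −0.09 in Col-0 NaCl libraries, against 0.66 and 0.66 in Col-0 control libraries. The difference of the means was −1.27 in ago4-3, −1.81 in ago4-2 and −0.79 in Col-0, with no overlap between NaCl and control libraries in any line. The ratios of GSA1 to GSA2 and of CHLI1 to CHLI2 did not overlap in any line either. For CHLI1 to CHLI2 in ago4-3 the difference was only 0.04. Other pairs overlapped in some lines, as HEME1 to HEME2 did in ago4-2 and Col-0. With 2 libraries a side, lack of overlap alone says little, and the ratios were not tested. In ago4-2 in NaCl, HEMA1 was at 0.251 and 0.257 of the HEMA2 level per length.

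**Figure D2:**
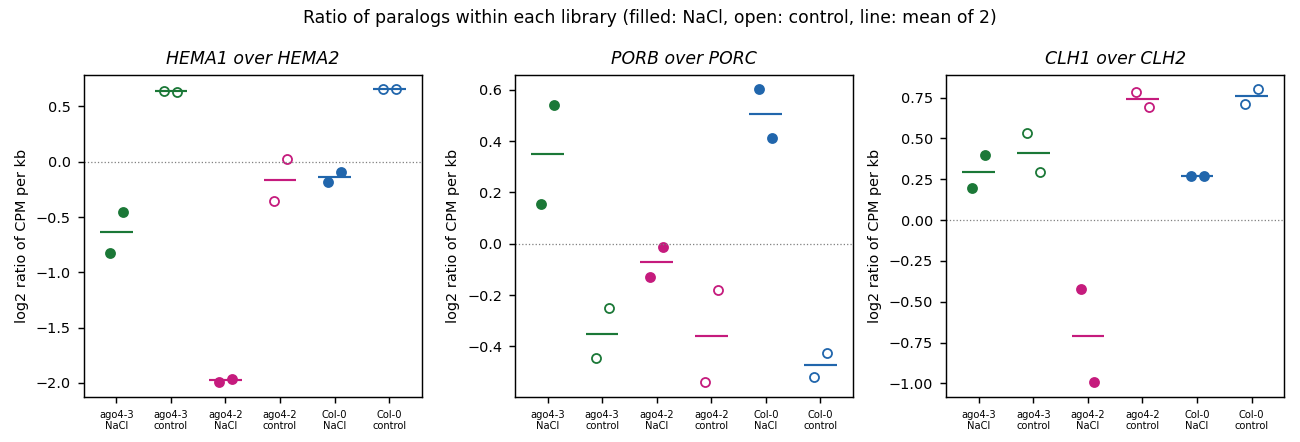
Log2 ratio of CPM per kb between paralogs in each library, with NaCl libraries filled, control libraries open and a line at the mean of 2, for HEMA1 over HEMA2, PORB over PORC and CLH1 over CLH2. HEMA1 over HEMA2 is near −2 in ago4-2 in NaCl (−1.99 and −1.96), and PORB over PORC is above 0 in NaCl in ago4-3 and Col-0 but not in ago4-2.

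The next enzyme, glutamate-1-semialdehyde aminotransferase, is encoded by GSA1 and GSA2. GSA1 rose in Col-0 (0.49 ± 0.10) under every alternative tried. Its ago4-2 call (0.27 ± 0.10, adjusted p = 0.049) was lost without the second control library and without either NaCl library, and its value in ago4-3 was 0.28 ± 0.10 (adjusted p = 0.0601). GSA2 was not called in any line, at 0.14 in ago4-3, −0.18 in ago4-2 and 0.30 in Col-0 (adjusted p = 0.0516).

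Between ALA and protoporphyrin, 9 of 10 genes were measured. In ago4-3, 3 rose and 0 fell. In ago4-2, 0 of the 9 were called, with values from −0.21 to 0.18. In Col-0, 6 rose and 0 fell, with values from 0.14 to 0.57. HEMC showed the largest Col-0 rise of this stretch: it had 367 and 390.0 CPM in Col-0 NaCl libraries, against 254 and 256 CPM in Col-0 control libraries (0.57 ± 0.10). HEMC also rose in ago4-3 (0.37 ± 0.10), and its value in ago4-2 was 0.16 ± 0.10. UROS, which closes the ring, rose in Col-0 (0.56) and was not called in the mutant lines.

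HEME1, a uroporphyrinogen decarboxylase, rose in ago4-3 (0.32 ± 0.10), where its paralog HEME2 was at 0.10 ± 0.10, and both rose in Col-0 (0.48 and 0.43). HEMF1, a coproporphyrinogen oxidase, rose in ago4-3 (0.30) and in Col-0 (0.35), while the scarce HEMF2 was at 0.22 ± 0.33 and 0.14 ± 0.31. The protoporphyrinogen oxidase genes PPOX1 and PPOX2 were called in no line.

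Among the magnesium chelatase genes, CHLH fell in both mutant lines. The porphyrin-binding subunit CHLH (AT5G13630; chr5:4387307-4392429), also known as GUN5, had 23.8 and 31.0 CPM in ago4-3 NaCl libraries, against 45.1 and 54.5 CPM in ago4-3 control libraries. It had 4.67 and 5.57 CPM in ago4-2 NaCl libraries, against 24.0 and 28.2 CPM in ago4-2 control libraries. It had 32.5 and 27.7 CPM in Col-0 NaCl libraries, against 32.1 and 33.9 CPM in Col-0 control libraries. The NaCl and control libraries were apart in both mutant lines and overlapped in Col-0. The ago4-3 fall began from a higher control mean than that of Col-0 (49.8 against 33.0 CPM). In NaCl the means of these 2 lines were 27.4 and 30.1 CPM. The log2 fold change was −0.86 ± 0.15 in ago4-3 (edgeR, adjusted p = 0.000766), −2.35 ± 0.17 in ago4-2 (edgeR, adjusted p = 1.65e-07) and −0.13 ± 0.15 in Col-0 (edgeR, adjusted p = 0.591). Both falls held under every alternative tried.

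The other chelatase subunits differed from CHLH and from each other. CHLI1, the main ATPase subunit, had 161 and 174 CPM in ago4-2 NaCl libraries, against 240.0 and 220.0 CPM in ago4-2 control libraries (−0.46 ± 0.10). In Col-0 it had 239 and 259 CPM in NaCl libraries, against 199 and 200 CPM in control libraries (0.32 ± 0.10), a call lost without either control library and without the second NaCl library (adjusted p = 0.197, 0.201 and 0.196). In ago4-3 its value was −0.04 ± 0.10. Its paralog CHLI2 fell in ago4-2 (−0.59 ± 0.12) and was at −0.08 in ago4-3 and 0.09 in Col-0. CHLD, the subunit that bridges CHLI and CHLH, rose in ago4-3 (0.36 ± 0.10) and Col-0 (0.53 ± 0.10) and was at 0.15 ± 0.10 in ago4-2.

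GUN4 (AT3G59400; chr3:21948501-21949796) binds porphyrins and stimulates magnesium chelatase. It had 28.5 and 19.8 CPM in ago4-3 NaCl libraries, against 20.5 and 22.7 CPM in ago4-3 control libraries. It had 9.22 and 10.4 CPM in ago4-2 NaCl libraries, against 15.8 and 19.4 CPM in ago4-2 control libraries. It had 21.4 and 23.6 CPM in Col-0 NaCl libraries, against 14.8 and 15.1 CPM in Col-0 control libraries. The ago4-2 libraries were lower in NaCl without overlap, the Col-0 libraries higher without overlap, and the ago4-3 libraries overlapped. The log2 fold change was 0.16 ± 0.16 in ago4-3 (adjusted p = 0.525), −0.85 ± 0.17 in ago4-2 (adjusted p = 0.00143) and 0.59 ± 0.16 in Col-0 (adjusted p = 0.02), by edgeR. The Col-0 call was lost without either control library (adjusted p = 0.125 and 0.106) and without the second NaCl library (adjusted p = 0.114). GUN4 overlaps AT3G59410 on the opposite strand over 946 bases, and since the sources used here do not say whether counting used the strand, reads of the 2 genes cannot be told apart. AT3G59410 itself was at 0.07 in ago4-3, 0.08 in ago4-2 and 0.11 in Col-0 and was not called. FLU, which represses glutamyl-tRNA reductase in the dark, rose in Col-0 (0.39) and was at 0.31 in ago4-3 and 0.26 in ago4-2.

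**Figure D3:**
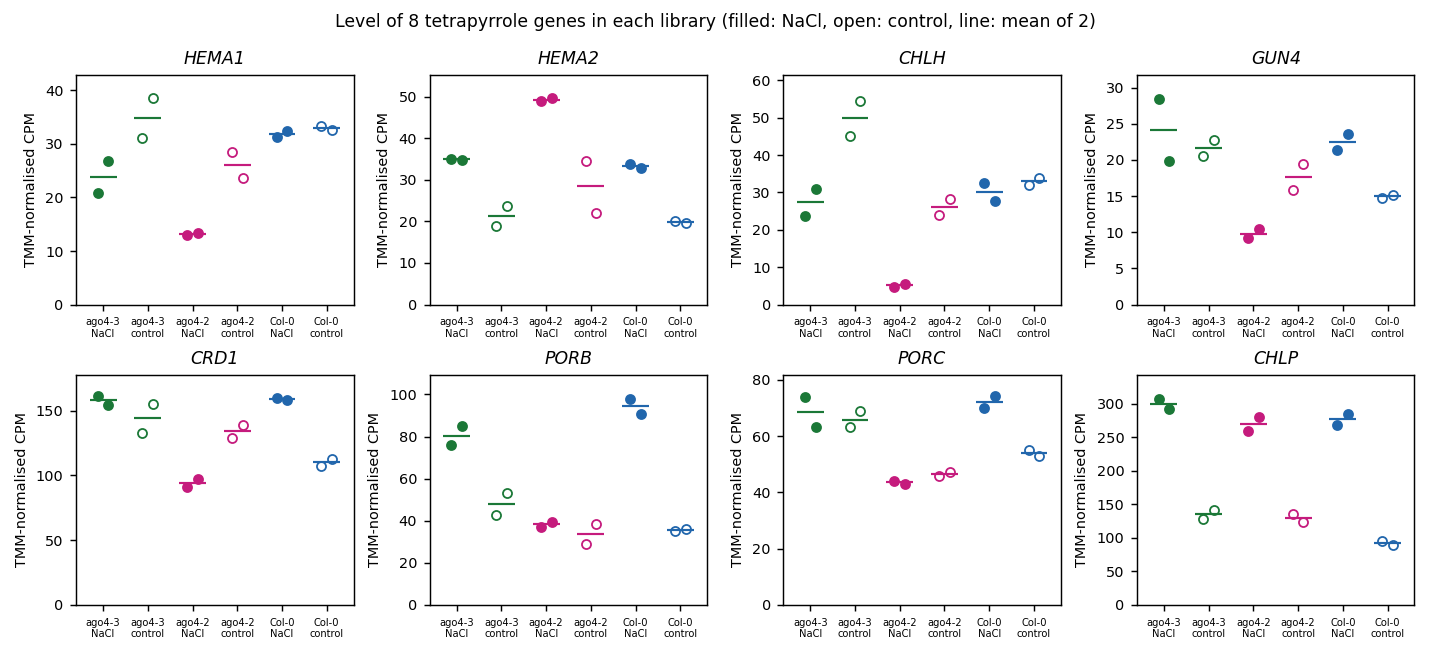
TMM-normalised CPM of 8 genes in each library, with NaCl libraries filled, control libraries open and a line at the mean of 2. CHLH in ago4-2 in NaCl (4.67 and 5.57 CPM) is below every other group, and CHLP is higher in NaCl than in control in all 3 lines.

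After the chelatase, CHLM methylates magnesium protoporphyrin and CRD1 (AT3G56940) carries the cyclase step that closes the isocyclic ring. CRD1 had 161 and 154 CPM in ago4-3 NaCl libraries, against 133 and 155 CPM in ago4-3 control libraries. It had 91.3 and 97.3 CPM in ago4-2 NaCl libraries, against 129 and 139 CPM in ago4-2 control libraries. It had 160.0 and 158 CPM in Col-0 NaCl libraries, against 107 and 113 CPM in Col-0 control libraries. The values were apart in ago4-2 and Col-0, in opposite directions, and overlapped in ago4-3. CRD1 had a log2 fold change of 0.13 ± 0.10 in ago4-3, −0.50 ± 0.10 in ago4-2 and 0.53 ± 0.10 in Col-0, and both calls held under every alternative tried. CHLM changed less, at 0.17 in ago4-3, −0.25 in ago4-2 and 0.32 in Col-0, and its ago4-2 call was lost without any 1 of the 4 ago4-2 libraries.

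Protochlorophyllide oxidoreductase, which needs light to act, is encoded by PORA, PORB and PORC. PORB (AT4G27440; chr4:13725546-13727440) had 75.8 and 84.8 CPM in ago4-3 NaCl libraries, against 42.5 and 53.0 CPM in ago4-3 control libraries. It had 37.1 and 39.2 CPM in ago4-2 NaCl libraries, against 29.0 and 38.3 CPM in ago4-2 control libraries. It had 97.8 and 90.8 CPM in Col-0 NaCl libraries, against 35.3 and 36.1 CPM in Col-0 control libraries. The NaCl libraries were above the control libraries in ago4-3 and Col-0, and the groups overlapped in ago4-2. The log2 fold change was 0.76 ± 0.13 in ago4-3, 0.17 ± 0.13 in ago4-2 (adjusted p = 0.344) and 1.40 ± 0.13 in Col-0 (adjusted p = 5.17e-06), by edgeR. In ago4-2 the value hung on the control libraries: it was −0.01 without the first and 0.40 (adjusted p = 0.0482) without the second.

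PORC, the form of light-grown tissue, rose in Col-0 (0.42 ± 0.09) and was not called in ago4-3 (0.06 ± 0.10) or ago4-2 (−0.10 ± 0.10). It had 74.1 and 63.4 CPM in ago4-3 NaCl libraries, against 63.1 and 68.8 CPM in ago4-3 control libraries. It had 44.2 and 43.1 CPM in ago4-2 NaCl libraries, against 45.9 and 47.3 CPM in ago4-2 control libraries. It had 70.1 and 74.2 CPM in Col-0 NaCl libraries, against 55.1 and 52.9 CPM in Col-0 control libraries. Both groups overlapped in ago4-3 alone. Per length, the ratio of PORB to PORC within a library was higher in NaCl by 0.70 in ago4-3, 0.29 in ago4-2 and 0.98 in Col-0 (log2), with no overlap in any line. As given above, other paralog pairs were also without overlap, and the ratios were not tested.

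PORA, known from dark-grown seedlings, was at the edge of detection. It had 34 and 50 counts in ago4-3 NaCl libraries, against 2 and 0 in ago4-3 control libraries. It had 24 and 28 counts in ago4-2 NaCl libraries and 68 and 22 in Col-0 NaCl libraries, and no PORA counts were available for the control libraries of those lines. The counts were higher in NaCl in the 1 line where both conditions could be read. The authors' deposited table gave PORA a log2 fold change of 5.16 for salt in ago4-3, with a false discovery rate of 1.23e-16. The authors' deposited tables gave 0.37 (0.786) for ago4-3 against Col-0 in NaCl and 0.79 (0.0304) for ago4-3 against ago4-2 in NaCl.

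CHLP showed the largest rise of the 36 genes in each line. CHLP (AT1G74470; chr1:27991165-27993445) is the geranylgeranyl reductase that makes the phytol tail of chlorophyll and of tocopherol. It had 307 and 293 CPM in ago4-3 NaCl libraries, against 128 and 142 CPM in ago4-3 control libraries. It had 260.0 and 281 CPM in ago4-2 NaCl libraries, against 136 and 124 CPM in ago4-2 control libraries. It had 269 and 285 CPM in Col-0 NaCl libraries, against 95.1 and 88.9 CPM in Col-0 control libraries. In each line the 2 groups were far apart. The log2 fold change was 1.15 ± 0.10 in ago4-3, 1.06 ± 0.10 in ago4-2 and 1.59 ± 0.10 in Col-0 (edgeR, adjusted p = 2.94e-07 in Col-0), and all 3 calls held under every alternative tried.

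CAO (AT1G44446), the chlorophyllide a oxygenase that makes chlorophyll b, had 18.6 and 17.0 CPM in ago4-3 NaCl libraries, against 10.6 and 12.2 CPM in ago4-3 control libraries. It had 14.9 and 13.8 CPM in ago4-2 NaCl libraries, against 11.9 and 13.3 CPM in ago4-2 control libraries. It had 18.2 and 16.3 CPM in Col-0 NaCl libraries, against 8.39 and 9.40 CPM in Col-0 control libraries. The libraries did not overlap in any line, but the distance was small in ago4-2. CAO rose in ago4-3 (0.65 ± 0.14) and Col-0 (0.96 ± 0.14) and was at 0.18 ± 0.14 in ago4-2. CHLG, the chlorophyll synthase that joins the tail to the ring, rose in ago4-3 (0.38 ± 0.09) and Col-0 (0.72 ± 0.09) and was at 0.09 ± 0.09 in ago4-2. DVR, the divinyl reductase, rose in Col-0 (0.31) and was at −0.02 in ago4-3 and −0.24 in ago4-2.

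Of the 4 genes of the heme and bilin branch, 1 rose in ago4-3 and 0 fell, 1 rose and 1 fell in ago4-2, and 2 rose in Col-0 and 0 fell. FC1, a ferrochelatase, fell in ago4-2 (−0.37 ± 0.12) and was at −0.24 in ago4-3 and −0.17 in Col-0, while its paralog FC2 was at −0.24 in ago4-3, −0.15 in ago4-2 and 0.01 in Col-0 and was called in none. HY1, the heme oxygenase that opens the ring, rose in all 3 lines, by 0.36 in ago4-3, 0.25 in ago4-2 and 0.54 in Col-0, and its ago4-2 call was lost without the second control library and without either NaCl library. HY2, which makes phytochromobilin, rose in Col-0 (0.45), a call lost without any 1 of the 4 Col-0 libraries, and was at −0.004 in ago4-3 and 0.18 in ago4-2.

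Chlorophyll breakdown genes split. PPH, the pheophytinase, rose in ago4-3 (0.40 ± 0.12), ago4-2 (0.45 ± 0.12) and Col-0 (0.41 ± 0.12), and held under every alternative in none of the 3. CLH1, a chlorophyllase, had 2.08 and 2.40 CPM in ago4-2 NaCl libraries, against 6.59 and 5.02 CPM in ago4-2 control libraries (−1.35 ± 0.22), and its values in ago4-3 (−0.54 ± 0.21) and Col-0 (−0.32 ± 0.20) were not called. Its paralog CLH2 was at −0.42 in ago4-3, 0.16 in ago4-2 and 0.16 in Col-0, and 913 bases of it overlap AT5G43870 on the opposite strand. PAO, the pheophorbide a oxygenase, had 2.87 and 2.44 CPM in ago4-3 NaCl libraries, against 4.64 and 5.56 CPM in ago4-3 control libraries (−0.94). That call was lost without the second control library (adjusted p = 0.119) and without either NaCl library (adjusted p = 0.0676 and 0.129). In Col-0, PAO had 3.87 and 2.80 CPM in NaCl libraries, against 4.76 and 5.18 CPM in control libraries. These Col-0 libraries did not overlap, and PAO was not called there by edgeR. The authors' deposited table gave PAO −0.58 for salt in Col-0, with a false discovery rate of 0.0139. In ago4-2 it had 3.55 and 3.27 CPM in NaCl, against 2.33 and 4.11 CPM in control, and was not called. NYC1, the chlorophyll b reductase, was called in no line.

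The salt response of each mutant line was then tested against that of Col-0 as an interaction. For ago4-3, 0 of 36 genes were called in either direction by edgeR, and DESeq2 also called 0. At an unadjusted p under 0.05, edgeR gave 0 genes with a higher and 12 with a lower response, and the lowest adjusted p was 0.434. At the adjusted threshold, 0.0113% of all genes had a higher and 0.0113% a lower response in ago4-3. No share of all genes was computed at an unadjusted p, so no count at that threshold has a background beside it. The values ran from −0.72 ± 0.21 for CHLH to 0.08 ± 0.45 for HEMF2. Of the 36, 1 was above 0, and the median was −0.25 (all genes −0.01). No share of all genes above 0 was computed here. A p that misses the threshold does not show that ago4-3 responded as Col-0 did.

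For ago4-2, 16 of 36 genes had a lower salt response than Col-0 and 0 a higher one, with a median of −0.49 (all genes −0.02). The background was 2.59% of all genes lower and 1.84% higher. At an unadjusted p under 0.05, with no background at that threshold, 0 genes were higher and 23 lower, and DESeq2 called 0 higher and 18 lower. All 8 measured genes of the chlorophyll branch were among the 16, together with CHLH, CHLI1, CHLI2, GUN4, HEMA1, HEMB1, HEME1 and HEME2. The largest differences were −2.21 ± 0.22 for CHLH (adjusted p = 9.15e-05), −1.44 ± 0.24 for GUN4 (adjusted p = 0.0031), −1.23 ± 0.18 for PORB (adjusted p = 0.00164) and −1.04 ± 0.13 for CRD1 (adjusted p = 0.000553), by edgeR. Next came HEMA1 at −0.93 ± 0.20 and CAO at −0.78 ± 0.19. CHLH, GUN4, PORB and CRD1 kept the call under every alternative tried. The count was 5 without the first Col-0 control library and 4 without the second, 9 without either Col-0 NaCl library, and 4 and 6 without the first and the second ago4-2 NaCl library. The 4 genes of the heme and bilin branch and the 5 of breakdown were not called. Of the 5 measured green tissue markers, 4 also had a lower salt response in ago4-2, and 1 of the 6 seed storage genes had a higher one.

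The mutant lines were also set against Col-0 within each condition. In NaCl, 0 of 36 genes differed between ago4-3 and Col-0 (edgeR), where 0.541% of all genes were higher and 0.648% lower in ago4-3. DESeq2 also called 0, and at an unadjusted p under 0.05 edgeR gave 0 higher and 2 lower. The ago4-3 values ran from −0.42 for HEMA1 to 0.12 for CHLP. In control, CHLP alone was called higher in ago4-3 (0.55 ± 0.10, adjusted p = 0.00813), where 0.851% of all genes were higher and 0.806% lower. That call was lost without either Col-0 control library and without the second ago4-3 control library, while 4 genes were called without the first ago4-3 control library. A total of 33 of the 36 values were above 0 in that comparison, with a median of 0.22 (all genes −0.01). The share of all genes above 0 was not computed, so this count has no background beside it. The value of CHLH was 0.59 and was not called by edgeR here. The authors' deposited table also gave it 0.59, with a false discovery rate of 0.00077.

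The ago4-2 line was set against Col-0 in the same way. In NaCl, 19 of 36 genes were lower in ago4-2 and 2 higher, with a median of −0.33 (all genes −0.02), where 14.4% of all genes were lower and 14.9% higher. CHLH had 4.67 and 5.57 CPM in ago4-2 NaCl libraries, against 32.5 and 27.7 CPM in Col-0 NaCl libraries (−2.55 ± 0.17, adjusted p = 7.32e-08). PORB had 37.1 and 39.2 CPM in ago4-2 NaCl libraries, against 97.8 and 90.8 CPM in Col-0 NaCl libraries (−1.30 ± 0.13). HEMA1 had 12.9 and 13.4 CPM in ago4-2 NaCl libraries, against 31.3 and 32.4 CPM in Col-0 NaCl libraries (−1.28 ± 0.15). All 3 sets were apart. GUN4 (−1.19 ± 0.17), CLH1 (−1.07 ± 0.22) and CRD1 (−0.76 ± 0.10) followed, and all 6 calls held under every alternative tried. All 4 chelatase genes and 6 of the 8 measured chlorophyll branch genes were lower in ago4-2, while CAO (−0.26) and CHLP (−0.03) were not called.

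HEMA2 (0.57 ± 0.16, adjusted p = 0.0148) and PPH (0.40 ± 0.12, adjusted p = 0.018) were higher in ago4-2 in NaCl. Both calls were lost without the second Col-0 NaCl library and without either ago4-2 NaCl library. With library totals in place of TMM factors, 0 genes were higher and 31 lower in ago4-2 in NaCl. Under that scaling the median of all genes was −0.29 in this comparison, against −0.02 with TMM factors.

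In control, 2 genes were higher in ago4-2 than in Col-0, CHLP (0.49 ± 0.10) and CAO (0.52 ± 0.14), and 0 lower, where 5.22% of all genes were higher and 3.22% lower. At an unadjusted p under 0.05, with no background at that threshold, 10 were higher and 6 lower, and DESeq2 called 3 higher and 1 lower. Library totals gave 0 higher and 1 lower. The count was 0 without the second Col-0 control library, 1 without the first Col-0 control library, 1 without the first ago4-2 control library and 6, of which 3 were higher, without the second. HEMA1, CHLH, GUN4 and PORB were not called in control, at −0.34, −0.33, 0.24 and −0.07.

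**Figure D4:**
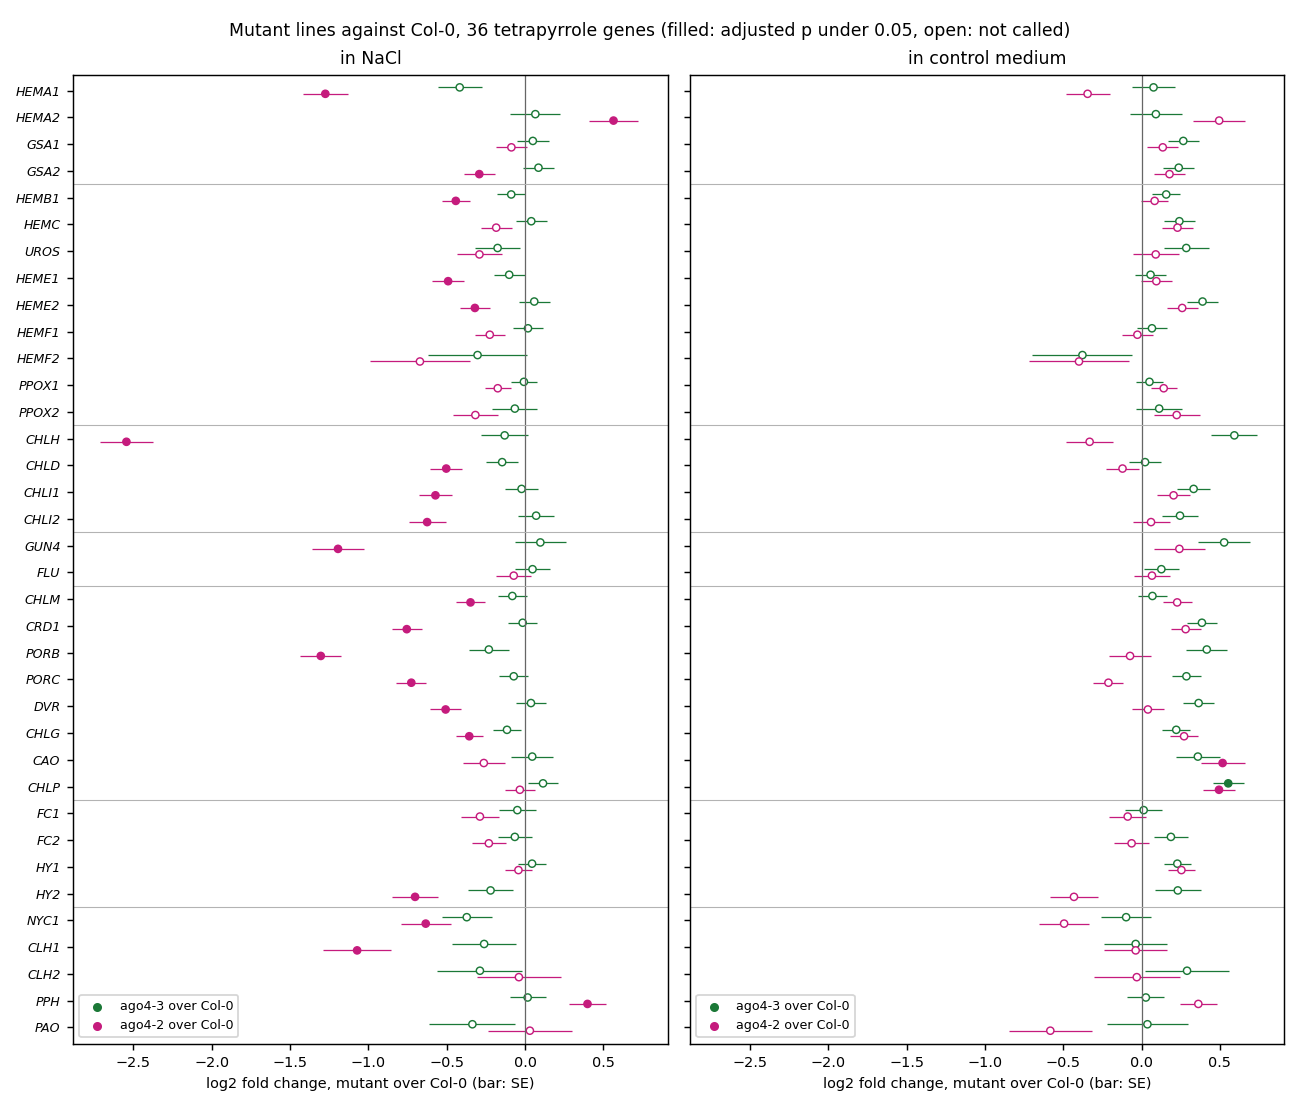
Log2 fold change of ago4-3 and of ago4-2 over Col-0 for 36 genes, with its SE, in NaCl at the left and in control medium at the right; filled points were called at an adjusted p under 0.05. In NaCl most ago4-2 points are filled and lie left of 0, with CHLH at −2.55, and no ago4-3 point is filled.

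The 2 mutant lines were compared with each other in both conditions. In NaCl, 16 of 36 genes were higher in ago4-3 than in ago4-2 and 2 lower, where 9.89% of all genes were higher and 11% lower. CHLH had 23.8 and 31.0 CPM in ago4-3 NaCl libraries, against 4.67 and 5.57 CPM in ago4-2 NaCl libraries (2.42 ± 0.17, adjusted p = 2.27e-07). GUN4 (1.29 ± 0.17), PORB (1.07 ± 0.13), HEMA1 (0.86 ± 0.15), CLH1 (0.81 ± 0.22) and CRD1 (0.74 ± 0.10) were also higher, and HEMA2 (−0.50 ± 0.16) and PPH (−0.38 ± 0.12) were lower. The CLH1 and HEMA2 calls were lost without any 1 of the 4 NaCl libraries. The count was 9 and 10 without the first and the second ago4-2 NaCl library and 11 without the first ago4-3 NaCl library. Library totals gave 23 higher and 0 lower.

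In control, 4 genes were higher in ago4-3 than in ago4-2 and 0 lower, where 3.79% of all genes were higher and 5.21% lower. CHLH had 45.1 and 54.5 CPM in ago4-3 control libraries, against 24.0 and 28.2 CPM in ago4-2 control libraries (0.93 ± 0.15, adjusted p = 0.000941). PORC (0.50 ± 0.10), HY2 (0.66 ± 0.15) and PORB (0.49 ± 0.13) were the others. At an unadjusted p under 0.05, with no background at that threshold, 9 were higher and 2 lower, and DESeq2 called 5 higher and 0 lower. The count was 7, of which 6 were higher, without the second ago4-2 control library. These comparisons share libraries with each other and with the salt comparisons, so their values stand side by side and do not add to one another.

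A group of genes on chromosome 4 was near silent in 1 line and expressed in the other. Genes with under 0.5 CPM in all libraries of one line and over 5 CPM in all libraries of the other numbered 12 between ago4-2 and Col-0, and 7 of them lay on chromosome 4 between bases 7542233 and 15566971. The others lay on chromosome 2 (4 genes) and chromosome 3 (1 gene). Of the 7, AT4G12870 was near silent in ago4-2 and the rest in Col-0. The ends of the stretch are those of the outermost of these 7 genes. The share of all genes that lie on chromosome 4 was not computed. NYC1, CHLI1, CHLM and PORB lie in the chromosome 4 stretch. Each allele was read in a single line, so line background and allele cannot be told apart for these 4 or for any other gene. Without these 4, 15 of 32 genes were lower and 2 higher in ago4-2 in NaCl, and 13 of 32 had a lower salt response. The same limit holds for the 32. Between ago4-3 and Col-0, 3 genes were near silent in 1 line and expressed in the other, on chromosomes 2 and 3.

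Other genes of the pathway, taken from a list of 19 of which 16 were measured, were read in the same comparisons. In ago4-3, 4 of 16 rose in NaCl and 3 fell, beside 12.6% and 10.4% of all genes. In ago4-2, 4 of 16 rose and 3 fell, beside 17.4% and 17.8% of all genes, and in Col-0 8 of 16 rose and 0 fell, beside 10.7% and 7.42%. SGR2, a paralog of the magnesium-dechelating STAY-GREEN protein SGR1, had 24.2 and 18.7 CPM in ago4-3 NaCl libraries, against 3.83 and 3.52 CPM in ago4-3 control libraries (2.53 ± 0.16). It had 126 and 131 CPM in ago4-2 NaCl libraries, against 43.7 and 44.8 CPM in ago4-2 control libraries (1.54 ± 0.13), and 19.0 and 19.6 CPM in Col-0 NaCl libraries, against 7.10 and 9.11 CPM in Col-0 control libraries (1.27 ± 0.14). SGR2 was higher in ago4-2 than in Col-0 by 2.74 in NaCl and 2.47 in control. SGR1 rose by 0.85 in ago4-3, 1.43 in ago4-2 and 0.78 in Col-0, and it lies inside the stretch of chromosome 4 named above, while SGR2 starts at 7.16 Mb, just before it. LIL3:2, a light-harvesting-like protein that holds the geranylgeranyl reductase, rose by 0.87 in ago4-3, 0.86 in ago4-2 and 0.99 in Col-0. GBP, which binds and stabilises glutamyl-tRNA reductase, fell in ago4-3 (−0.33) and in ago4-2 (−0.65) and was at −0.10 in Col-0. SGRL, the STAY-GREEN-like protein, fell in ago4-3 (−0.39) and in ago4-2 (−1.076). In the interaction for ago4-2, 0 of the 16 had a higher and 4 a lower response, namely BCM1 (−1.75), SGRL (−1.07), GBP (−0.54) and LIL3:1 (−0.51), of which LIL3:1 lies inside the chromosome 4 stretch.

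Of 13 listed regulators of the pathway, 12 were measured. GLK1 and GLK2 encode the transcription factors that turn on chlorophyll genes in chloroplasts. GLK1 had 29.2 and 25.7 CPM in ago4-3 NaCl libraries, against 14.5 and 11.8 CPM in ago4-3 control libraries (1.05 ± 0.18). It had 7.53 and 8.67 CPM in ago4-2 NaCl libraries, against 4.59 and 7.26 CPM in ago4-2 control libraries, a difference that was not called, and 13.5 and 12.4 CPM in Col-0 NaCl libraries, against 7.72 and 7.41 CPM in Col-0 control libraries (0.77 ± 0.18). GLK1 was higher in ago4-3 than in Col-0 in NaCl (1.083 ± 0.172) and in control (0.80 ± 0.18), and lower in ago4-2 than in Col-0 in NaCl (−0.67 ± 0.18). GLK2 rose in all 3 lines, by 0.77 in ago4-3, 0.42 in ago4-2 and 0.85 in Col-0.

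HYH, a homologue of the light-signalling factor HY5, fell in all 3 lines (−0.48 in ago4-3, −1.39 in ago4-2 and −0.40 in Col-0), and its salt response was lower in ago4-2 than in Col-0 (−0.99 ± 0.17). The GATA factor CGA1 fell in ago4-2 (−0.31) and rose in Col-0 (0.54), and its response in ago4-2 was lower (−0.85 ± 0.16), but it lies inside the chromosome 4 stretch. In ago4-2 against Col-0 in NaCl, 0 of the 12 regulators were higher and 8 lower, beside 14.9% and 14.4% of all genes.

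The authors' own tests were set beside these counts. In the authors' deposited tables, 5 genes were higher and 3 lower for salt in ago4-3, 2 higher and 5 lower in ago4-2, and 18 higher and 1 lower in Col-0, at a false discovery rate under 0.05. The authors' deposited tables gave 2 higher and 18 lower genes for ago4-2 against Col-0 in NaCl, and 17 higher and 2 lower for ago4-3 against ago4-2 in NaCl. In control they gave 4 higher genes for ago4-3 against Col-0, 0 for ago4-2 against Col-0 and 1 for ago4-3 against ago4-2. The edgeR fit used here called 1, 2 and 4 genes in those comparisons, so the 2 sets of tests differed in which genes passed. In all 9 deposited comparisons, 0 genes were called in opposite directions by the 2 sets of tests.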

How the data were processed

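RNA was sequenced from 12 libraries of germinating seeds, 2 in each of 6 groups. The deposited tables, per the file headers, hold counts per gene for 4 libraries each, and the counts of a library were the same in its 3 tables. The authors also deposited log2 fold changes and p-values with false discovery rates for 9 comparisons, made per the submitters' processing notes with SAMtools, Picard, DESeq, edgeR and the TAIR10 build. The aligner and the use of strand are not given in the sources used here. A further 36 per-library columns of pseudo-counts were not used. Of the counts from 1 to 20 in a library, 72.35% to 87.65% were even, so a count is not always 1 separate fragment.

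The 17751 genes with counts in all 12 libraries were fitted in R 4.3.3 with edgeR 4.0.16 (TMM factors, 1 coefficient per group, quasi-likelihood F test), and p-values were adjusted by Benjamini-Hochberg over all of them. The SE is the log2 fold change divided by the square root of F. A total of 147 identifiers with a suffix and 791 genes without counts in all libraries were left out, and PORA is one of the 791. Levels between genes were compared per kilobase of TAIR10.1 exon length. The fit was run on simulated counts with 2-fold and 4-fold changes for salt in Col-0, of which edgeR recovered 81% and 99%. Of 17551 unchanged genes, 12 were called. Changes under 2-fold and the excess of even counts were not simulated, so the run does not cover them.

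Alternatives were DESeq2 1.42.0, its size factors in edgeR, a filter at 1 CPM in all libraries, no filter, each comparison's own groups, a replicate block and leaving out each library. The expression filter of the main fit removed 0 genes. The fit with no filter therefore repeated the main fit and was no separate check. Scaling by library totals and the search for CCAATC were added after the data were seen. The 38 genes and the other lists were chosen with earlier results of these data known. Genes given in full were the called ones with the up to 6 largest changes per direction, paralog pairs split by the call, and CHLH, GUN4, HEMA1, PORA, PORB and PORC for salt. Of the other lists, up to 4 genes by smallest adjusted p were named; genes named beyond these were chosen after their values were seen.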

Additional observations from a re-analysis of the deposited data

Results flagged for a closer look

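For 16 genes the difference between the salt response of ago4-2 and that of Col-0 passed the test of the difference itself (edgeR interaction, Benjamini-Hochberg adjusted p under 0.05 over all genes), and each response was lower in ago4-2. In ALA synthesis and the steps to protoporphyrin, the log2 difference was −0.93 for HEMA1, −0.53 for HEMB1, −0.58 for HEME1 and −0.58 for HEME2. In magnesium chelatase and its activator it was −2.21 for CHLH, −0.78 for CHLI1, −0.69 for CHLI2 and −1.44 for GUN4. In the chlorophyll branch it was −0.57 for CHLM, −1.04 for CRD1, −1.23 for PORB, −0.51 for PORC, −0.55 for DVR, −0.63 for CHLG, −0.78 for CAO and −0.53 for CHLP. CHLI1, CHLM and PORB lie in the stretch of chromosome 4 named above, and for all 16 genes line background and allele cannot be told apart.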

How the results depend on the processing

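The gene values checked under each setting were those of the called genes with the up to 6 largest changes per direction in each comparison. For salt, CHLH, GUN4, HEMA1, PORB and PORC were checked as well. Other values given in the text, and all genes of the other lists, were not in these checks. Of the checks made, 614 kept direction and call, 88 lost the call, 1 gained it and 3 changed sign. The fit with no filter, which repeated the main fit, gave 62 of the 614. No cause was tested. The sign changes came from leaving out 1 library: PORB for salt in ago4-2 ranged from −0.007 to 0.398, GUN4 for salt in ago4-3 from −0.122 to 0.406 and PORC for salt in ago4-3 from −0.054 to 0.172. Leaving out 1 library gave 5 to 15 called genes for salt in ago4-3, 9 to 13 in ago4-2 and 9 to 16 in Col-0. It gave 0 to 4 for ago4-3 and 0 to 6 for ago4-2 against Col-0 in control, 15 to 17 for ago4-2 against Col-0 in NaCl, 3 to 7 for ago4-3 against ago4-2 in control, 9 to 15 in NaCl, and 4 to 15 for the ago4-2 interaction. A group left with 1 library was assumed to vary like the others. Library totals gave 8 for salt in ago4-3, 12 for salt in Col-0, 1 for ago4-2 against Col-0 in control and 2 for ago4-3 against ago4-2 in control. Under library totals the median of all genes was −0.15 for salt in ago4-2, −0.14 for ago4-3 and −0.17 for ago4-2 against Col-0 in control, −0.11 for ago4-3 against Col-0 in NaCl and 0.16 for ago4-3 against ago4-2 in NaCl. DESeq2 gave 5 for ago4-3 and 4 for ago4-2 against Col-0 in control. The groups of a comparison alone gave 5 and 1 there, and 2 for ago4-3 against ago4-2 in control. With the replicate block, 1 gene was called for ago4-2 against Col-0 in control, and 12 against 16 in the ago4-2 interaction. Same-numbered libraries deviated with correlations of −0.449 to 0.274 over 15 pairs of groups, with 2 above 0.1 and 4 below −0.1. Whether some of these libraries share a batch was not tested. PAO, CLH2 and HEMF2, with means of at most 10.9 CPM, had the widest errors.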
